A study of Mus musculus with 16 samples.

Results

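The class I odorant receptors of mouse lie in a single large cluster on chromosome 7, and the receptors described here are the probe sets of the array whose gene symbol runs from Olfr543 to Olfr699, without the symbols marked as pseudogenes. The rule was met by 118 of the 22206 probe sets tested and by 118 of the 1080 odorant receptors among them, and it uses no measured value. All 118 symbols matched a RefSeq gene on chromosome 7. Of the 118, 109 carry a synonym of the families MOR1 to MOR42, which are class I, and 3 (Olfr596, Olfr652 and Olfr681) carry none of that form. The remaining 6, Olfr693, Olfr694, Olfr695, Olfr697, Olfr698 and Olfr699, carry synonyms of family MOR283, outside the class I range, so the label of the group does not hold for them. The main counts and medians of the sorts are also given without them, and all other values include them unless stated.

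Odorant receptors are G protein-coupled receptors of the cilia of olfactory sensory neurons, and a neuron expresses mainly 1 receptor gene from 1 allele. Class I receptors resemble those of fish. In mouse they are expressed mainly in the dorsal zone of the olfactory epithelium, a long-range enhancer called the J element acts on many genes of their cluster, and several of them respond to carboxylic acids. The transcript of S100a5, a calcium-binding protein, depends on neuronal activity, so a reporter in its place marks neurons that were recently active. In this design, the Kentucky assay, a receptor whose neurons respond to an odor becomes more abundant in the marked fraction when the odor is given.

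Cells of the olfactory mucosa of S100a5-tauGFP mice were sorted by GFP fluorescence into GFP+ and GFP- fractions, and their RNA was hybridised to Clariom S arrays. The 16 arrays form 4 groups of 4: GFP+ and GFP- cells of mice given 1-pentanethiol, an odorous thiol (odor pools), and GFP+ and GFP- cells of mice given filtered air (vehicle pools). Each of the 8 pools held cells of 3 mice, and the 24 mice, all carrying the reporter, were of both sexes and 7 to 12 weeks old. They stayed singly in air chambers for 40 h, with the odor or filtered air pulsed for 10 s every 20 min after 26 h. The series' design text names bourgeonal instead, and the name in the sample labels is used here. The replicates are pools of different mice, and the labels do not state how the GFP+ gate was set.

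The values are log2 signals per probe set, so levels are not compared between genes, and all differences are on the log2 scale. The median of the negative control entries, 6.25 over all arrays, was used as a guide to nonspecific signal. It was 7.28 on the GFP+ array of vehicle pool 2, with 6.22 to 6.38 for GFP+ cells of the remaining vehicle pools, and 84 of the 118 receptors exceeded their array's own median there, against 97 to 105. The reporter's own gene, S100a5, differed by 0.99 ± 0.12 with the odor (adjusted p = 7.79e-06) and 0.87 ± 0.12 without it (adjusted p = 3.51e-05), higher in GFP+ cells. Omp, a marker of mature olfactory neurons, differed by 0.03 ± 0.10 and 0.05 ± 0.10. The 8 listed markers of these neurons had a median of 0.13 in each sort, and 1 of them passed, Ano2. It was higher by 0.48 ± 0.11 and 0.36 ± 0.11 (limma, adjusted p = 0.00513 and 0.0327). Over all probe sets 11.3% and 9.34% were higher. Of the 5 neutrophil markers, all 5 were lower in GFP+ cells of both stimuli, with medians of -8.01 and -8.08, as were 4 of 5 immature neuron markers, with medians of -2.12 and -2.50. GFP- cells are thus a mixture, and the GFP+ fraction need not be pure. In such bulk samples fewer neurons expressing a receptor and less RNA per neuron cannot be told apart. The part of these other cells in the receptor differences was not tested.

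RefSeq windows of 250 bases before to 50 after the gene start (GRCm38.p6) were found for 101 of the 118 receptors. Those of the receptors with the highest and lowest summed difference over both sorts, among receptors with a window, are shown because these genes carry the comparison of GFP+ with GFP- cells. Olfr613 (chr7:103550118-103550417, + strand) and Olfr695 (chr7:106716296-106716595, - strand) are the high pair, and Olfr629 (chr7:103741273-103741572, - strand) and Olfr600 (chr7:103346877-103347176, - strand) the low pair. Capitals mark TAATNA, a core bound by homeodomain factors such as Lhx2, on either strand, and overlapping matches run together.
Olfr613: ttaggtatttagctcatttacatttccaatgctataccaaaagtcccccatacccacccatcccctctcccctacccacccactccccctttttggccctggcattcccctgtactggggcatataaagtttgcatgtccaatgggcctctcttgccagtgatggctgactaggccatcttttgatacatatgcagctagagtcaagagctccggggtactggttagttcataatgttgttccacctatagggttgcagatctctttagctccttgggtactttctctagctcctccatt
Olfr695: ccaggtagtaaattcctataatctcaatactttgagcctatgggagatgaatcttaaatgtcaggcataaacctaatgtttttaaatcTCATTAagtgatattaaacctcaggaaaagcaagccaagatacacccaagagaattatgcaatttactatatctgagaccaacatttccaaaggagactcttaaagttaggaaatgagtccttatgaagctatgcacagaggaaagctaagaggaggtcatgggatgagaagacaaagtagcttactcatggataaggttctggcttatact
Olfr629: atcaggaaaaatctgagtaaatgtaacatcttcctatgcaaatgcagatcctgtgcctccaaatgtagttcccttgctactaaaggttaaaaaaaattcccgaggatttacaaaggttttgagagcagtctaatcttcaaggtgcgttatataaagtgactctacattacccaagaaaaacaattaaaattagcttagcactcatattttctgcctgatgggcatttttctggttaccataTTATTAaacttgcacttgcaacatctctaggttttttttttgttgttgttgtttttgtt
Olfr600: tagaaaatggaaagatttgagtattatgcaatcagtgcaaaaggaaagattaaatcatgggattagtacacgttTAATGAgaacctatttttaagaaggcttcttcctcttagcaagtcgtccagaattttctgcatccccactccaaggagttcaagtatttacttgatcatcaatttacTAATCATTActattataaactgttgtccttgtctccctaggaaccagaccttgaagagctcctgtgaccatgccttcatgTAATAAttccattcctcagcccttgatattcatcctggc
The windows of Olfr613, Olfr695, Olfr629 and Olfr600 hold 0, 1, 1 and 4 matches. CCCNNGGG, the palindromic core of the Ebf site, also searched on both strands, has 0 matches in each of the 4. Among the 101 windows, 64.4% hold TAATNA and 3.96% CCCNNGGG, against 66.6% and 2.79% of the 824 windows of other odorant receptors and 26.5% and 13.7% of all 32851 windows. TAATNA was in 20 of 29 windows of receptors higher in GFP+ cells of both stimuli, in 7 of 10 of those lower in both, in 12 of 14 of those that passed in 1 sort and in 26 of 48 of those that passed in neither. In 75 of the 101 windows, that of Olfr600 among them, the RefSeq gene start is the start codon of the model, so these windows need not be promoters.

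With both stimuli some receptors were more abundant and others less abundant in GFP+ cells, and none passed in opposite directions with and without the thiol. In the odor pools 37 of 118 receptors were higher in GFP+ than in GFP- cells and 22 lower (limma, Benjamini-Hochberg adjusted p under 0.05), where 11.3% of all probe sets were higher and 11.9% lower. In the vehicle pools 43 were higher and 14 lower, against 9.34% and 11.8% of all probe sets. The odorant receptors outside the rule, 962 probe sets, had 359 higher and 272 lower in the odor pools and 356 higher and 250 lower in the vehicle pools. With the 6 MOR283 receptors left out, 32 of 112 were higher and 22 lower in the odor pools, and 38 higher and 14 lower in the vehicle pools. With all array medians set equal, which moves the median difference of all probe sets to 0.46 in each sort, 53 were higher and 16 lower in the odor pools and 69 higher and 11 lower in the vehicle pools. Without vehicle pool 2, whose GFP+ array had the high negative controls, 48 were higher and 11 lower in the vehicle pools.

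The median difference over the 118 receptors was 0.25 in the odor pools and 0.47 in the vehicle pools, beside 0.13 and 0.11 over all probe sets and 0.26 and 0.23 over the other odorant receptors. Without the 6 MOR283 receptors it was 0.21 and 0.46. The neighbouring class II receptors of chromosome 7, Olfr467 to Olfr542, had medians of 1.08 and 0.99 over 58 probe sets, with 35 and 36 higher and 3 and 4 lower. Of the class I-range receptors that passed as higher, 31 of 37 in the odor pools and 40 of 43 in the vehicle pools differed by more than 2-fold, and of those that passed as lower 16 of 22 and 11 of 14 did. Receptors passing as higher had a median of 1.53 in the odor pools and 1.89 in the vehicle pools, and those passing as lower -2.16 and -2.15.

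**Figure D1:**
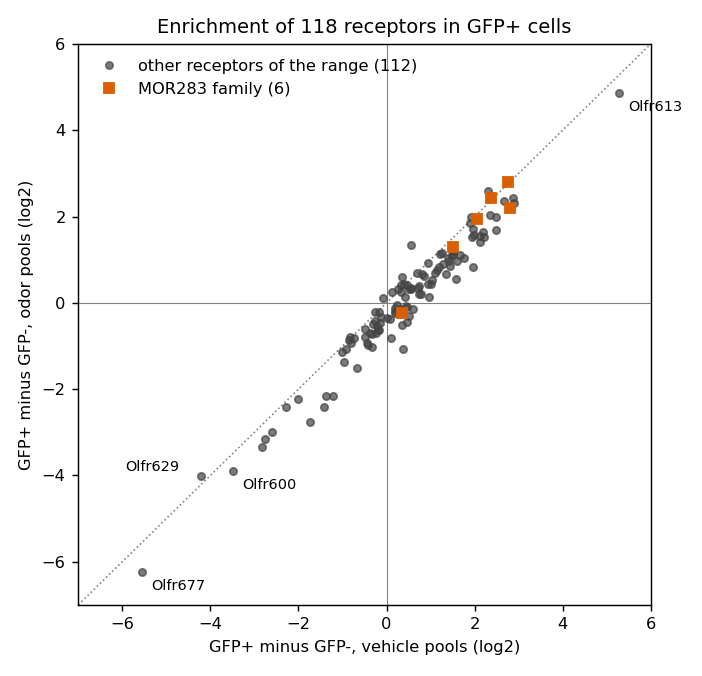
Difference of GFP+ from GFP- cells (log2) of each of the 118 receptors, in the odor pools on the vertical axis and the vehicle pools on the horizontal axis, with the 6 MOR283 receptors as squares and the dotted line at equal differences. Olfr613 stands alone at the upper right and Olfr677 at the lower left, and most points lie slightly below the line.

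Of all 22206 probe sets, 936 were higher in GFP+ cells of both stimuli, 2289 lower in both and 5 passed in opposite directions. Of the 962 odorant receptors outside the rule, 309 were higher in both, 229 lower in both and 4 opposite. Of the 118 receptors described here, 36 were higher in GFP+ cells of both stimuli and 14 lower in both, and 0 passed in opposite directions. The 36 are 97.3% of those higher in the odor pools and 83.7% of those higher in the vehicle pools, and the 14 are 63.6% and 100% of those lower. Without the MOR283 receptors, 31 of 112 were higher in both (96.9% and 81.6%) and 14 lower in both. The 2 sorts share no array, though the fit gave them a common estimate of spread. Across the 118 receptors their differences correlated with r = 0.977 (Spearman's rho = 0.961), given as a description, since receptors share the arrays. Neither sort gave a call for 52 receptors. In all 4 groups 12 receptors averaged at or under the negative control median, and 3 of these were called, Olfr555 and Olfr645 as lower and Olfr688 as higher.

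The other 16 receptors passed in 1 sort alone, which does not show that the sorts differ there, and the test of that difference is given further on. Olfr630 was higher in the odor pools alone, by 1.33 ± 0.24 (adjusted p = 0.000531), with 0.55 ± 0.24 in the vehicle pools. Higher in the vehicle pools alone were 7 receptors, with Olfr668 (1.57 ± 0.36), Olfr557 (1.44 ± 0.36) and Olfr658 (1.35 ± 0.33) at the top, beside 0.56, 0.85 and 0.66 in the odor pools. Lower in the odor pools alone were 8, led by Olfr553 (-2.16 ± 0.52) and Olfr586 (-1.50 ± 0.31), beside -1.22 and -0.67 in the vehicle pools. Olfr605 was the one receptor of these whose vehicle value had the opposite sign (-1.06 ± 0.37 in the odor pools, adjusted p = 0.0495, and 0.37 ± 0.37 in the vehicle pools).

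The receptors covered a wide range of signal. Group means above the negative control median were found for 103 receptors in GFP+ cells and 98 in GFP- cells with the odor, and for 104 and 99 with filtered air. Over the receptors the median SD among the 4 arrays of a group was 0.50 in GFP+ cells against 0.32 in GFP- cells with the odor, and 0.55 against 0.34 with filtered air.

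Olfr613, of family MOR20, differed most among the receptors higher in GFP+ cells. With the odor its signals were 9.99, 10.03, 10.07 and 11.82 in GFP+ cells, against 5.70, 5.80, 5.85 and 5.13 in GFP- cells. In the vehicle pools they were 10.21, 11.03, 10.95 and 12.18 in GFP+ cells, against 5.92, 5.89, 5.79 and 5.60 in GFP- cells. The fractions stood far apart in every pool, and every GFP- value lay under the negative control median, which limits what the size shows. The difference was 4.86 ± 0.39 in the odor pools (± SE from the model, 29.0-fold, adjusted p = 5.51e-08) and 5.29 ± 0.39 in the vehicle pools (39.2-fold, adjusted p = 2e-08).

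Olfr593, of family MOR24, had 10.29, 10.58, 10.01 and 10.31 in GFP+ cells of the odor pools, against 8.25, 8.01, 7.69 and 7.98 in GFP- cells. In the vehicle pools it had 10.50, 10.24, 11.04 and 11.18 in GFP+ cells, against 7.61, 7.46, 7.77 and 8.53 in GFP- cells. The fractions did not overlap, with differences of 2.32 ± 0.23 (adjusted p = 8.57e-07) and 2.90 ± 0.23 (adjusted p = 6.54e-08). Olfr571 (2.43 and 2.87), Olfr644 (2.35 and 2.66), Olfr556 (2.59 and 2.31) and Olfr651 (2.04 and 2.36) were higher in both the odor and the vehicle pools. Olfr617 was among the highest in the odor pools (2.00 ± 0.27), with 1.92 in the vehicle pools. Olfr550 (2.49 ± 0.45) and Olfr689 (2.22 ± 0.22) were among the highest in the vehicle pools, with 1.69 and 1.53 in the odor pools. Olfr617, Olfr550 and Olfr689 each passed in both sorts. The receptors of this paragraph have no ligand named here.

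Olfr692, a class I receptor of family MOR36 that is also known from vomeronasal neurons, was higher in GFP+ cells of both stimuli. It had 9.17, 9.79, 9.37 and 10.74 in GFP+ cells of the odor pools, against 7.66, 7.95, 7.88 and 7.65 in GFP- cells. In the vehicle pools it had 9.74, 8.88, 9.87 and 11.03 in GFP+ cells, against 7.27, 7.80, 6.64 and 7.88 in GFP- cells. All GFP+ values exceeded all GFP- values, and the differences were 1.98 ± 0.39 (adjusted p = 0.00118) and 2.48 ± 0.39 (adjusted p = 0.000129).

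Of the MOR283 receptors, 5 of 6 were higher in GFP+ cells of both stimuli, with family medians of 2.07 in the odor pools and 2.21 in the vehicle pools. Olfr694 had 11.71, 11.49, 11.85 and 12.15 in GFP+ cells of the odor pools, against 9.64, 9.28, 9.72 and 9.82 in GFP- cells. Its vehicle signals were 11.97, 11.24, 11.71 and 12.33 in GFP+ cells, against 9.08, 9.14, 8.62 and 9.16 in GFP- cells. The groups were well separated, by 2.19 ± 0.21 (adjusted p = 4.73e-07) and 2.81 ± 0.21 (adjusted p = 2.63e-08). Olfr695 differed by 2.79 and 2.76, Olfr698 by 2.42 and 2.37, Olfr693 by 1.95 and 2.05, and Olfr697 by 1.30 and 1.52. Olfr699, whose synonym carries the pseudogene mark P, differed by -0.24 and 0.35, and neither value passed. Other receptors of the range have that mark in a synonym too. Some of them passed in both sorts, Olfr684 among them, and some in neither.

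At the other end, Olfr677, of family MOR32, had 5.74, 6.78, 6.51 and 6.19 in GFP+ cells of the odor pools, against 12.10, 12.74, 12.65 and 12.62 in GFP- cells. With filtered air it had 7.98, 7.29, 8.33 and 4.45 in GFP+ cells, against 12.61, 12.43, 12.38 and 12.85 in GFP- cells. The GFP- values were tight, while the vehicle GFP+ values spread widely, with pool 4 far below the other vehicle pools. The differences were -6.23 ± 0.56 in the odor pools (74.8-fold lower, adjusted p = 2.22e-07) and -5.56 ± 0.56 in the vehicle pools (47.1-fold lower, adjusted p = 8.39e-07), and the odor GFP+ values lay near the negative control median.

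Olfr629, of family MOR26, had 6.36, 5.26, 6.39 and 4.34 in GFP+ cells of the odor pools, against 9.45, 10.09, 9.07 and 9.82 in GFP- cells. With filtered air it had 5.91, 6.05, 5.39 and 4.14 in GFP+ cells, against 9.98, 10.07, 9.51 and 8.76 in GFP- cells. The fractions did not overlap. It differed by -4.02 ± 0.46 in the odor pools (adjusted p = 3.67e-06) and by -4.21 ± 0.46 in the vehicle pools (adjusted p = 2.18e-06), again with GFP+ signals near the level of the negative controls. Olfr600, the one gene of family MOR39 here, had 7.79, 6.98, 7.18 and 5.93 in GFP+ cells of the odor pools, against 10.76, 10.98, 10.81 and 10.90 in GFP- cells. With filtered air it had 7.03, 6.31, 7.90 and 6.13 in GFP+ cells, against 10.43, 10.57, 10.00 and 10.31 in GFP- cells. The GFP- values were close together in both stimuli. Its differences were -3.89 ± 0.35 and -3.48 ± 0.35 (adjusted p = 2.49e-07 and 9.17e-07). Olfr681 (-3.34 and -2.84), Olfr686 (-3.15 and -2.76), Olfr611 (-2.99 and -2.60), Olfr684 (-2.42 and -2.29) and Olfr671 (-2.76 and -1.74) were lower in both as well. Olfr672, which kept a strong signal in both fractions, had 11.15 to 12.28 in GFP+ cells of the odor pools, against 13.64 to 14.49 in GFP- cells, and in the vehicle pools 11.93, 12.48, 12.85 and 11.10 in GFP+ cells, against 13.98, 14.22, 13.77 and 14.43 in GFP- cells. It was lower in GFP+ cells of both stimuli, with differences of -2.23 ± 0.32 and -2.01 ± 0.32.

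**Figure D2:**
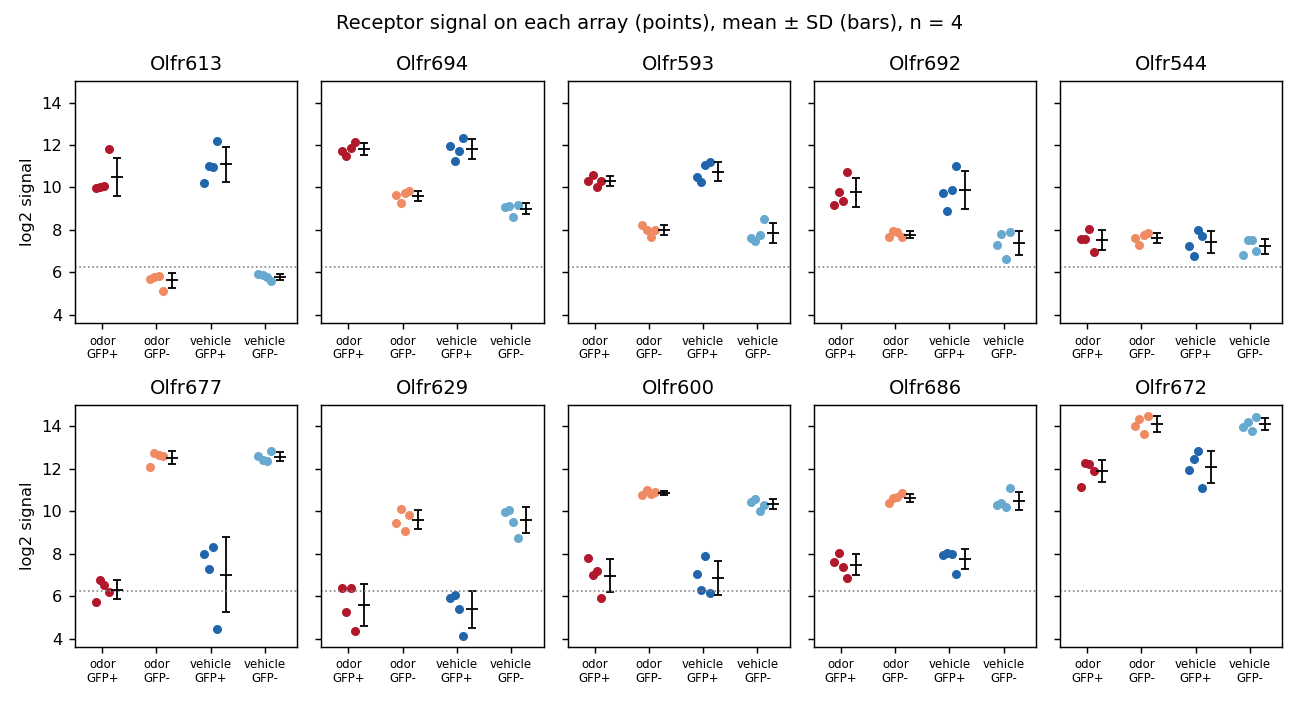
Log2 signal of 10 receptors on each array (points, 1 per pool) with the mean ± SD of the 4 arrays of a group (bars), and the negative control median of 6.25 as a dotted line. GFP+ points lie above GFP- points for Olfr613, Olfr694, Olfr593 and Olfr692, below them for Olfr677, Olfr629, Olfr600, Olfr686 and Olfr672, and among them for Olfr544.

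The 5 receptors of this cluster named for their acid ligands did not pass in either sort, though 3 of them passed under some alternatives. Olfr544, a receptor for azelaic acid, had 7.55, 7.57, 8.04 and 6.94 in GFP+ cells of the odor pools, against 7.61, 7.31, 7.77 and 7.86 in GFP- cells. The groups overlapped, with differences of -0.11 ± 0.26 in the odor pools and 0.20 ± 0.26 in the vehicle pools (adjusted p = 0.785 and 0.634), whose signs turned with the scaling. Its neighbour Olfr545, of the same family MOR42, differed by -0.54 ± 0.23 and -0.22 ± 0.23 (adjusted p = 0.11 and 0.548). The odor value passed when those arrays alone were fitted (adjusted p = 0.0321), and the vehicle value turned to 0.13 with array medians set equal and 0.10 with quantile normalization.

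Olfr558, the mouse counterpart of the human fatty acid receptor OR51E1, differed by 0.34 ± 0.33 and 0.55 ± 0.33 (adjusted p = 0.482 and 0.257). Over 15 alternatives its vehicle value ran from 0.10 to 1.01, and 2 of them passed, with array medians set equal (adjusted p = 0.0217) and without vehicle pool 2 (1.01). Olfr690 and Olfr691, neighbours of family MOR31 known to respond to fatty acids, differed by -1.06 ± 0.55 and 0.54 ± 0.40 in the odor pools (adjusted p = 0.178 and 0.354). In the vehicle pools they differed by -0.91 ± 0.55 and 1.04 ± 0.40 (adjusted p = 0.266 and 0.0777), and Olfr691 passed there in 5 of 15 alternatives, with values up to 1.40 and adjusted p down to 0.00667, among them the fit with the pool as a block (adjusted p = 0.045). Olfr690 was the most variable receptor in GFP+ cells of the odor pools, with values of 9.47, 10.58, 9.39 and 7.50.

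Several sequence families held receptors of both directions or of neither. Over all probe sets 11.3% were higher and 11.9% lower in the odor pools, and 9.34% and 11.8% in the vehicle pools. Over the 118 receptors the shares were 31.4% and 18.6%, and 36.4% and 11.9%. Of the 10 receptors of family MOR31, 6 were higher in GFP+ cells of both stimuli, Olfr617, Olfr618, Olfr619, Olfr648, Olfr649 and Olfr651, while Olfr549 was lower in the odor pools (-0.94, adjusted p = 0.00281). Family MOR32 held both directions. Of its 11 receptors, Olfr592 (1.57 and 1.98) and Olfr670 (1.86 and 1.89) were higher in both, Olfr677, Olfr672 and Olfr671 lower in both, and Olfr603 lower in the odor pools (-0.81, adjusted p = 0.0356). Family MOR40 had 3 of 8 higher and 1 lower in each sort, and family MOR8 had 3 of 4 higher in each, with the fourth, Olfr586, lower in the odor pools. Of the 7 receptors of family MOR34, 0 passed in the odor pools and 3 as higher in the vehicle pools (Olfr658, Olfr666 and Olfr668).

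Receptors next to each other among the 118 measured, by the order of the RefSeq table, were alike in sign more often than not. Their differences had the same sign in 69 of 117 adjacent pairs in the odor pools and in 73 in the vehicle pools. How many a random order would give was not tested. Other genes can lie between such neighbours. Across the 117 adjacent pairs of measured receptors the differences correlated with r = 0.0597 in the odor pools and 0.137 in the vehicle pools, as a description across genes that share the arrays. In 17 and 18 pairs both neighbours were higher, in 3 and 1 both lower, and in 15 and 10 the calls were opposite. Olfr670, higher in GFP+ cells, is followed directly by Olfr671 and Olfr672, both lower. There were 3 runs of at least 3 adjacent receptors with the same call, all of them higher and the same in both sorts, namely Olfr617 to Olfr619, Olfr646 to Olfr651 with 4 receptors, and Olfr692 to Olfr698 with 6. The last run crosses from the class I receptor Olfr692 into the MOR283 receptors, which the RefSeq order places after it. Distances between genes were not used. Olfr543 to Olfr630, on one side of the beta-globin genes, had 19 of 65 higher and 12 lower in the odor pools and 21 and 6 in the vehicle pools, and Olfr631 to Olfr692, on the other side, 13 of 47 and 10, and 17 and 8. Over all 118 receptors 31.4% were higher and 18.6% lower in the odor pools, and 36.4% and 11.9% in the vehicle pools. Over all probe sets these shares were 11.3% and 11.9%, and 9.34% and 11.8%. The sides were not tested against each other.

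**Figure D3:**
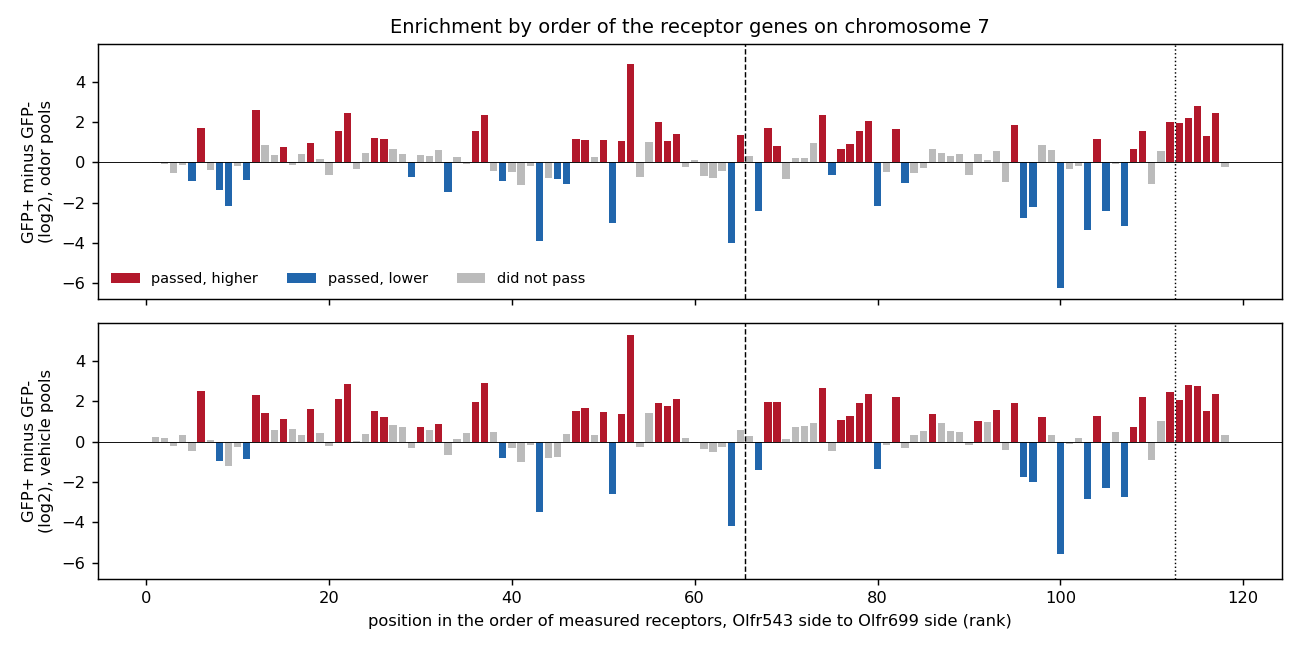
Difference of GFP+ from GFP- cells (log2) of the 118 receptors in their order on chromosome 7, in the odor pools above and the vehicle pools below, colored by whether the receptor passed. The dashed line marks the beta-globin genes and the dotted line the start of the MOR283 receptors, where 5 of the last 6 bars are high, while bars of both signs are spread along the rest of the cluster.

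The question of the assay is which receptors gain enrichment with 1-pentanethiol, and 0 of the 118 receptors passed in that test (limma). The test subtracts the difference between fractions in vehicle pools from that in odor pools, and 0.063% of all probe sets, 14 of 22206, passed, all of them higher and all odorant receptors outside this range. An unadjusted p under 0.05 was found for 1033 of all 22206 probe sets and for 8 of the 118 receptors. Among the 118 the highest value was 0.78 ± 0.34 for Olfr630 (adjusted p = 0.999), which lay near the negative control level. The 95% intervals of all 118 receptors ended below 2 and those of 98 below 1, the highest at 1.66 for Olfr622, where the probe sets that passed had gains of 1.52 to 5.42. Gains above 2 are therefore outside these intervals, each of which was computed for 1 receptor singly. For the 12 receptors at or under the negative control median in all groups, the signal is too low for the interval to bound a gain. Receptors at or under that median in some groups share this limit in part, such as Olfr613 in GFP- cells and Olfr629 in GFP+ cells.

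Most receptors had values below 0 in this test, though none passed. The difference of the sorts was below 0 for 104 of 118 receptors, with a median of -0.39, beside 0.01 over all probe sets and -0.14 over the other odorant receptors. With receptor medians set equal the class I-range median was -0.22, where that of all probe sets was 0.17. The median GFP+ minus GFP- difference over the 118 receptors was 0.33, 0.35, 0.03 and -0.01 in the 4 odor pools, against 0.67, 0.23, 0.82 and 0.37 in the 4 vehicle pools. The pools overlapped, since vehicle pool 2 lay under odor pools 1 and 2. Without vehicle pool 3 the median of the difference was -0.22, and without vehicle pool 2, the pool whose GFP+ array had high negative controls, it was -0.56.

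**Figure D4:**
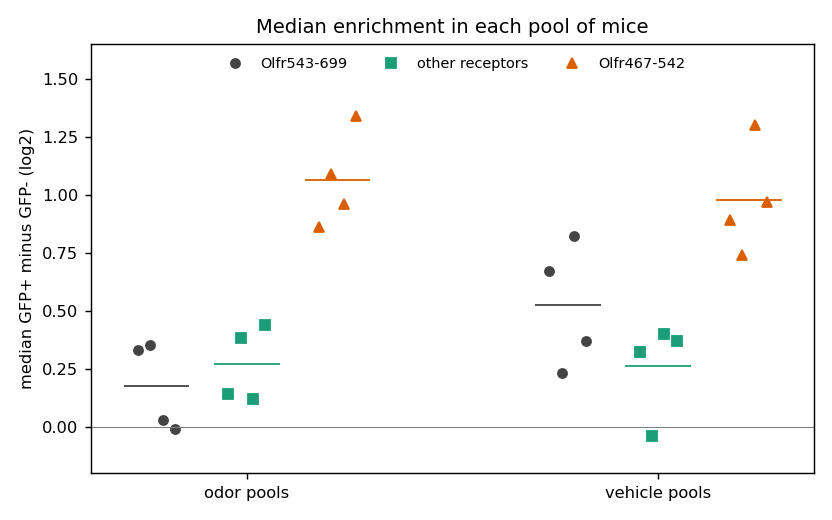
Median GFP+ minus GFP- difference (log2) in each pool of mice (points) with the mean of the 4 pools (line), over Olfr543 to Olfr699 (circles), all other odorant receptors (squares) and Olfr467 to Olfr542 (triangles). The circles of the odor pools lie at -0.01 to 0.35 and those of the vehicle pools at 0.23 to 0.82, and they overlap.

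The 5 receptors with the smallest p were Olfr671, Olfr635, Olfr605, Olfr594 and Olfr630, and they did not pass. Olfr671 had pool differences of -2.64, -2.70, -2.63 and -3.07 with the odor, against -1.06, -1.81, -1.65 and -2.45 in the vehicle pools. All its odor pools lay below all its vehicle pools, with a difference of -1.02 ± 0.33 (adjusted p = 0.88). Olfr605 had -1.26, -0.51, -0.57 and -1.88, against 0.11, 0.30, 0.82 and 0.26, and a difference of -1.43 ± 0.53 (adjusted p = 0.96). In all, 6 receptors had odor pools below vehicle pools without overlap (Olfr593, Olfr594, Olfr605, Olfr608, Olfr635 and Olfr671) and 0 the reverse, where 1.46% and 1.85% of all probe sets did so.

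The same arrays were compared within each fraction, and these values share their arrays with the comparison above. In GFP+ cells 0 of 118 receptors passed between odor and vehicle pools (limma; 0.0766% of all probe sets). An unadjusted p under 0.05 was found for 1587 of all 22206 probe sets and for 4 of the 118 receptors. The median was -0.12, with 45 receptors above 0, and it was -0.20 without vehicle pool 2 and 0.01 without vehicle pool 3. The smallest p belonged to Olfr594 (-0.70 ± 0.27), Olfr635 (-0.73 ± 0.29), Olfr605 (-0.81 ± 0.37), Olfr582 (-0.44 ± 0.20) and Olfr585 (-0.52 ± 0.25), with adjusted p of 0.626 to 0.708. In GFP- cells 0 passed as well (limma; 0.0495% of all probe sets, 0.00901% higher and 0.0405% lower). There 7 receptors had an unadjusted p under 0.05, beside 580 of all 22206 probe sets.

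In GFP- cells 104 of the 118 receptors were above 0, with a median of 0.21, beside 0.00 over all probe sets and 0.08 over the other odorant receptors. Olfr671 had 9.05, 9.27, 9.42 and 8.87 in GFP- cells of the odor pools, against 7.77, 8.05, 8.52 and 8.69 in those of the vehicle pools. The groups did not overlap, and the difference was 0.90 ± 0.23 (adjusted p = 0.902). Olfr632 (1.00 ± 0.34), Olfr694 (0.61 ± 0.21), Olfr655 (0.65 ± 0.27) and Olfr630 (-0.60 ± 0.24) followed, each with adjusted p = 1. Groups did not overlap for 5 receptors as higher and 1 as lower, where 1.24% and 1.37% of all probe sets did so.

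Of 23 probe sets for factors that act on receptor choice, 0 were higher in GFP+ cells and 3 (13%) lower in the odor pools and 2 (8.7%) lower in the vehicle pools, shares near the 11.9% and 11.8% of all probe sets, with medians of -0.01 and 0.04. Lbr, the lamin B receptor, whose loss from the nuclear envelope allows receptor genes to gather in heterochromatin, was lower in both, with differences of -1.89 ± 0.23 (adjusted p = 8.68e-06 and 8.33e-06). Cbx5, which encodes the heterochromatin protein HP1 alpha, was lower in both as well (-0.62 ± 0.16 and -0.45 ± 0.16), and Kdm1a, a histone demethylase needed for receptor choice, was lower in the odor pools (-0.35 ± 0.11, adjusted p = 0.0336). Lbr, Cbx5 and Kdm1a are also expressed in precursors and other cells, and the part of such cells in these differences was not tested. Bcl11b, which in mouse favours class II over class I choice, differed by -0.08 ± 0.17 and -0.19 ± 0.17 (adjusted p = 0.759 and 0.484), and Lhx2 and Ldb1, which assemble receptor enhancers, did not pass either.

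Markers of the zones of the epithelium were described because class I neurons lie mainly dorsally. Of the 5 listed dorsal genes, 0 were higher and 1 lower in the odor pools, where 11.9% of all probe sets were lower. In the vehicle pools 0 passed. Nqo1, the quinone reductase of dorsal neurons, differed by -0.03 ± 0.14 and 0.22 ± 0.14, and Robo2, an axon guidance receptor, by -0.62 ± 0.18 (adjusted p = 0.0182) and -0.19 ± 0.18. Of the 4 ventral genes measured, 2 were higher in the odor pools and 1 in the vehicle pools, where 11.3% and 9.34% of all probe sets were. Plxna1, the 1 of the 4 below 0, differed by -0.22 ± 0.21 and -0.17 ± 0.21 and did not pass. So few genes do not show a zonal difference. Slit1, a ligand of Robo receptors, was higher by 0.51 ± 0.17 and 0.62 ± 0.17 (adjusted p = 0.0342 and 0.0116) and Ncam2, a cell adhesion molecule, by 0.40 ± 0.14 in the odor pools (adjusted p = 0.0466). With odor against vehicle, 0 genes of these lists passed in either fraction (limma), and 1 choice factor and 1 dorsal gene had an unadjusted p under 0.05, both in GFP+ cells.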

How the data were processed

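Total RNA of sorted olfactory mucosa cells was labelled as biotinylated cRNA and hybridised to Clariom S arrays, 16 in all. Per the submitters' processing notes, the authors used Affymetrix Expression Console, and the deposited signals are on the log2 scale. How it summarized and normalized probes is not given in these sources. Of 28846 features, 6640 control entries were left out of the tests and 22206 probe sets were tested, 19572 with 1 gene symbol and 2634 with none. There are no detection calls, and precision is limited by how many arrays there are.

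A limma model (lmFit and eBayes, version 3.58.1, R 4.3.3) with the 4 group means took in every array, with no block, filter or further scaling, and 5 two-sided comparisons were taken from it. Adjusted p-values are Benjamini-Hochberg over all tested probe sets, with 0.05 as the threshold. The scripts were tested on simulated data. GFP+ and GFP- arrays of a pool come from the same mice, and their deviations from the group means correlated with r from 0.0119 to 0.224. Odor and vehicle arrays with the same replicate number had r of 0.186 to 0.29 (GFP-) and 0.0311 to 0.256 (GFP+). No pairing entered this model. The alternative with a replicate block used the pool for the sorts and their difference. For odor against vehicle it used the replicate number, in both fractions.

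Alternatives were 3 scalings, a filter on dim probe sets, an intensity trend, fits of the compared arrays alone, a replicate block and leaving out each pool. In each sort the 12 highest and 8 lowest receptors past the threshold with groups that do not overlap were named, in the other comparisons those past the threshold or, with fewer than 3, the 5 with the smallest p, and 6 receptors always (Olfr544, Olfr545, Olfr558, Olfr690, Olfr691 and Olfr692). Other genes came from fixed lists, and other receptors are named as examples of families, neighbours or runs and were chosen after their values were seen. The receptors and lists were chosen with earlier results of these data known. Protein sequences were not used here.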

Additional observations from a re-analysis of the deposited data

Results flagged for a closer look

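Of 158 groups of 4 arrays or pools checked, 10 held a value whose gap to the nearest other value was large for the range of its group, where chance gives about 5%. The negative control median of the GFP+ array of vehicle pool 2 was 7.28, where the remaining vehicle pools had 6.22 to 6.38 in that fraction. On GFP+ arrays of the odor pools, Olfr613 had 11.82 in pool 4, against 9.99 to 10.07 in the others, Olfr611 had 8.12 in pool 2, against 7.52 to 7.61, and Olfr632 had 5.81 in pool 3, against 6.47 to 6.52. On the GFP- array of odor pool 1 Olfr630 had 5.03, against 5.92 to 6.05 in the others.

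In vehicle pool 3 the GFP+ array had 10.96 for Olfr605, against 9.67 to 9.87 in the other vehicle pools, and 8.57 for Olfr684, against 6.86 to 6.94. The GFP- array of that pool had 8.62 for Olfr694, against 9.08 to 9.16, and 10.90 for the neighbouring Olfr695, against 12.32 to 12.49. On the GFP+ array of vehicle pool 4 Olfr686 had 7.02, against 7.95 to 8.02.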

How the results depend on the processing

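Under all 15 alternatives of each sort, 0 of the receptors called there turned to the other direction. With each pool of mice as a replicate block, 58 of 59 calls of the odor pools and 56 of 57 of the vehicle pools remained, with 39 higher and 24 lower and 51 higher and 15 lower, and that block changed no call of a named receptor but that of Olfr691. The counts of 0 with odor against vehicle, and for the difference of the sorts, were 0 under every alternative run, the replicate block included. With array medians set equal the receptor median was 0.57 in the odor pools and 0.82 in the vehicle pools, where 69 receptors were higher. That scaling moves the median of all probe sets as well, to 0.46 in each sort. With 1 odor pool left out, 42 to 48 of the 59 odor calls remained (42 without odor pool 2), and with 1 vehicle pool left out, 47 to 53 of the 57 vehicle calls. Leaving out 1 pool gave 25 to 37 higher and 15 to 22 lower in the odor pools (median 0.17 to 0.31) and 36 to 48 higher and 11 to 15 lower in the vehicle pools (median 0.38 to 0.63). For odor against vehicle the median then lay between -0.20 and 0.01 for GFP+ cells and between 0.18 and 0.27 for GFP- cells, and for the difference of the sorts between -0.56 and -0.22. Signs turned for 2 named receptors that did not pass. Olfr544 in the odor pools was 0.21 with array medians set equal, 0.23 with quantile normalization and -0.24 to 0.16 with 1 pool left out (0.16 without odor replicate 4), and in the vehicle pools -0.03 with receptor medians set equal. Olfr545 in the vehicle pools was 0.13 with array medians set equal and 0.10 with quantile normalization. The cause was not tested. The dim filter kept 101 of the 118 receptors, and signals near the negative controls limit what differences of dim receptors show.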

Other observations

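Class I receptors whose numbers lie outside the range were described from a fixed list, of which 7 of 8 were measured (Olfr33 and Olfr64 to Olfr69). Olfr68 and Olfr69, next to the beta-globin genes inside the same cluster, were lower in GFP+ cells. With the odor, Olfr69 averaged 8.62 in GFP+ cells and 13.16 in GFP- cells, a difference of -4.54 ± 0.42 (adjusted p = 2.53e-07), and differed by -3.90 ± 0.42 in the vehicle pools (adjusted p = 1.58e-06). Olfr68 differed by -3.73 ± 0.49 and -3.24 ± 0.49 (adjusted p = 1.81e-05 and 8.29e-05). Olfr66 was higher in the odor pools alone, by 1.02 ± 0.32 (adjusted p = 0.0299; vehicle pools 0.25 ± 0.32), and Olfr33 in the vehicle pools alone, by 0.86 ± 0.26 (adjusted p = 0.0255; odor pools 0.66 ± 0.26). With the odor, Olfr66 averaged 6.63 in GFP+ and 5.61 in GFP- cells, near the negative control median of 6.25, which limits what its difference shows. The difference of the sorts did not pass for Olfr66 or Olfr33 (limma, adjusted p = 0.999). With odor against vehicle, 0 of the 7 passed in either fraction (limma), with 1 at an unadjusted p under 0.05, in GFP+ cells.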
